A study of Mus musculus with 2 samples.

Results

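The 8 genes described here encode proteins that neutrophils store in their granules: 4 of the primary (azurophil) granule, Elane, Mpo, Prtn3 and Ctsg, and 4 of the secondary (specific) granule, Ltf, Ngp, Camp and Lcn2. They were found by symbol, 1 row each, among the 31053 genes listed for 2 single-cell libraries of injured mouse spinal cord. The rule uses no measured value, but the members were chosen with earlier results of these data known. Both libraries were made with the 10x Genomics 3' version 3 kit from cord taken 5 days after injury. The treatment was an HDAC3 inhibitor for one and vehicle for the other. The labels give neither the compound, its dose, the strain and age of the mice nor how many animals a library holds. With 1 library per group no difference has a replicate check and none was tested, so libraries rather than treatments are set side by side. Intervals are 95% and cover counting error alone, and paired values are given in the order HDAC3 inhibitor, vehicle.

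A neutrophil fills its granules in waves while it matures in bone marrow. Primary granule proteins are made first, in cycling promyelocytes that still share a program with monocyte progenitors, secondary granule proteins follow in myelocytes and metamyelocytes, and gelatinase-rich tertiary granules come last. The transcripts of each wave are then shut off, so a blood neutrophil carries the proteins long after most of the mRNA has gone. Among the primary members, Elane (neutrophil elastase), Prtn3 (proteinase 3) and Ctsg (cathepsin G) are serine proteases of 1 family, and Mpo (myeloperoxidase) makes hypochlorous acid from hydrogen peroxide. Of the secondary members, Ltf (lactoferrin) binds iron, Lcn2 (lipocalin 2) binds the iron carriers of bacteria, Camp is the precursor of the mouse cathelicidin peptide, and Ngp (neutrophilic granule protein) is a cystatin-like protein. Lcn2 is also an acute-phase gene that many tissues switch on during inflammation.

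The members lie in 5 places of the genome (GENCODE M21 on GRCm38, the assembly also called mm10). Prtn3 (ENSMUSG00000057729, chromosome 10, 79874476 to 79883174, plus strand) ends 3072 bases before Elane (ENSMUSG00000020125, chromosome 10, 79886247 to 79888215, plus strand). Mpo (ENSMUSG00000009350) lies on chromosome 11, 87793581 to 87804413, plus strand, and Ctsg (ENSMUSG00000040314) on chromosome 14, 56099881 to 56102574, minus strand. Of the secondary members, 3 sit on 1 stretch of chromosome 9: Camp (ENSMUSG00000038357, 109847379 to 109849617, minus strand), Ngp (ENSMUSG00000032484, 110419747 to 110423012, plus strand) and Ltf (ENSMUSG00000032496, 111019271 to 111042767, plus strand). The gap is 570129 bases from Camp to Ngp and 596258 bases from Ngp to Ltf. Lcn2 (ENSMUSG00000026822) lies on chromosome 2, 32384633 to 32388252, minus strand.

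The 250 bases before the RefSeq start (GRCm38.p6) are shown for the 4 primary members, whose transcripts end together below, and for Ltf and Lcn2, the latest to rise and the longest to stay among the secondary members. Capitals mark AGGAAGT (a PU.1-type ETS sequence), AACGG (MYB) and GCAAT (a core of C/EBP sites, printed as ATTGC where it lies on the other strand).
Elane: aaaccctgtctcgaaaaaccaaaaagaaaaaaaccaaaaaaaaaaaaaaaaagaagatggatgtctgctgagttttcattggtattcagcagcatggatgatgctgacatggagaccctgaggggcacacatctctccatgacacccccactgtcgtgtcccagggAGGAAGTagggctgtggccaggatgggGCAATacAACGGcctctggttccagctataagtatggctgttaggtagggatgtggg
Prtn3: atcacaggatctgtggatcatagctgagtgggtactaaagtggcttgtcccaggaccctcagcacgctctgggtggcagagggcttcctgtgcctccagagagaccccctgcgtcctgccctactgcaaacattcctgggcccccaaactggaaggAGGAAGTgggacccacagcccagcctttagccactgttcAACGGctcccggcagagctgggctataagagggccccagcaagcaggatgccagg
Mpo: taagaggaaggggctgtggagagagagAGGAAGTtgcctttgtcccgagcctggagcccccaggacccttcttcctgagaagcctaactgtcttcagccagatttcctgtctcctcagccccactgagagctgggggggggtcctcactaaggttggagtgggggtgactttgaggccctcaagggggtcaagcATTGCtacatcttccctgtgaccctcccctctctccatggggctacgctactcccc
Ctsg: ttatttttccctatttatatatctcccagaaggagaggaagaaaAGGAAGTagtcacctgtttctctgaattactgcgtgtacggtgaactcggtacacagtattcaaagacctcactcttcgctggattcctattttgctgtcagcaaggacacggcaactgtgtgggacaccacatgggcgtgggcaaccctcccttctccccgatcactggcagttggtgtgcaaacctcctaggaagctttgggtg
Ltf: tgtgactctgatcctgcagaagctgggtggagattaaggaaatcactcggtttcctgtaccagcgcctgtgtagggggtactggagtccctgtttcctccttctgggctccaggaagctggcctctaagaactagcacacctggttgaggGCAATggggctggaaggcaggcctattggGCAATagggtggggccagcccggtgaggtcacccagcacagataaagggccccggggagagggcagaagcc
Lcn2: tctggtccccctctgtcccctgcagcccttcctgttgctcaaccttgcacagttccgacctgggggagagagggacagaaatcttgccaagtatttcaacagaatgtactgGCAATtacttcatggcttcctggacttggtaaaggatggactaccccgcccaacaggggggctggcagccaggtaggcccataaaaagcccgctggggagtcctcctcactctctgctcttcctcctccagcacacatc
The windows are, in the same order, chr10:79886062-79886311 (plus strand), chr10:79879417-79879666 (plus), chr11:87793534-87793783 (plus), chr14:56102575-56102824 (minus), chr9:111019042-111019291 (plus) and chr2:32387740-32387989 (minus).

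AGGAAGT was found upstream of 4 of 4 primary and 0 of 4 secondary members, and in 7.80% of the same window of 27025 genes, with both strands searched throughout. It lies 84 to 78 bases before the start in Elane and 94 to 88 in Prtn3, and further out in Mpo (223 to 217) and Ctsg (206 to 200). AACGG was found in Elane (50 to 46 bases before the start) and Prtn3 (55 to 51) and in 14.8% of all windows. GCAAT, at 23.3% of all windows, was found in all 4 secondary members and in Elane and Mpo. The longer C/EBP-type sequence TTGCNNAA, at 9.55%, was found in Ltf, Ngp and Lcn2, and overlaps GCAAT in Ltf and Ngp. TGTGGT (RUNX), at 14.2%, was found only in Ctsg among the members, and the NF-kB consensus, at 7.01%, in none of the 8. These sequences were chosen to search after the windows had been read, so the counts are descriptions. In 7 of 8 members the RefSeq start lies downstream of the GENCODE start, by 21 to 5191 bases, with Prtn3 the widest.

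After removal of poor barcodes and called doublets, 2954 and 2164 cells remained with 37774673 and 28991181 UMIs (unique molecular identifiers, each a count of 1 captured transcript) and medians of 9701.5 and 10245 UMIs per cell. Libraries shared 10 barcodes, 4 of them among kept cells and 0 among the granulocytes below. Levels are CPM, counts per 1000000 UMIs of the summed cells. The kit reads 3' ends, so CPM is not divided by gene length and the text compares a gene with itself across cells, or shares of UMIs. Clusters were made without the 8 members among the genes used. Clusters called neutrophil-like held 164 and 200 cells, 5.55% and 9.24% of each library, with medians of 3547.5 and 6452.5 UMIs per cell.

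Granulocytes and their possible progenitors, 565 cells (275 and 290), were clustered again without any granule gene. They split into cycling progenitors (34 cells), 3 neutrophil stages named early (127 cells), intermediate (100) and late (138) by their mature minus immature gene score, a Ccr2 monocyte group (64), an Ear2 monocyte group (39) and a cycling group led by C1qa (63). By fold over the rest of this set, early cells were led by the haemoglobin genes Hbb-bs, Hbb-bt and Hba-a2. Late cells were led by Gm5483 and the interferon response genes Ifit1 and Ifit3. The part of these genes in the split was not tested. The progenitors were of 2 kinds. In 18 cells S100a8 and S100a9, the abundant calcium-binding alarmins of neutrophils, made up at least 3.94% of UMIs, and in the other 16 at most 0.2075%, so no cell lay within a factor of 2 of the 1% used to part them. All 34 held UMIs of the proliferation genes Mki67 or Top2a. The neutrophil lineage below is the 18 S100a8/S100a9-high progenitors (8 and 10) followed by early (46 and 81), intermediate (47 and 53) and late cells (70 and 68), 383 in all.

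Genes that name these stages moved in the order of maturation. Of the cell cycle list, 9 of 9 measured genes were highest in the S100a8/S100a9-high progenitors. Top2a, which untangles DNA in mitosis, stood at 584, 18.1, 1.68 and 0 CPM from progenitor to late with both libraries summed, and Mki67 at 399.9, 29.0, 3.36 and 2.31. Of the immature list, 10 of 11 genes were highest in progenitors, among them Stmn1, a microtubule regulator, at 1020, 24.6, 18.5 and 23.1 CPM. Of the mature list, 14 of 17 were highest in late and 3 in intermediate cells, and these lists set the order. Csf3r, the G-CSF receptor, rose from 31.2 through 111 and 544 to 1941 CPM, and the cytokine gene Il1b from 33.8 through 147 and 1803 to 7095. Over all 5709 genes with at least 20 UMIs in the lineage, 37.1% were highest in progenitors, 9.49% in early, 11.9% in intermediate and 41.5% in late cells. RNA content fell along the same order, with medians of 20613.5 and 22118.5 UMIs in the progenitors, 9784 and 10532 in early, 4281 and 6539 in intermediate and 2349 and 3795.5 in late cells. In these sums, fewer cells that transcribe a gene and fewer transcripts per cell are told apart only where cells are counted.

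Within the lineage, primary granule transcripts lay almost wholly in the progenitors. Elane stood at 193 CPM (131 to 275) and 480 CPM (394 to 580) in the S100a8/S100a9-high progenitors and at 1 UMI (1.97 CPM) and 0 in early cells. It was at 0 in intermediate and late cells of both libraries. Prtn3 stood at 374 and 280 CPM in these progenitors and at 3.94 and 0 CPM in early cells, 0 in intermediate cells, and 0 and 2 UMIs in late cells. Mpo was at 0 and 178 CPM in these progenitors, with 1 UMI in all the later cells together. Ctsg was at 12.5 and 53.4 CPM in these progenitors and at 0 in every later stage. The progenitors held 98.1% of all primary UMIs of the lineage (96.0% to 99.3%). Across 5 equal bins of the maturation score, 99.1% lay in the least mature bin.

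The other progenitors, low in S100a8 and S100a9, carried the same transcripts, with Prtn3 and Ctsg higher than in the S100a8/S100a9-high ones in both libraries. Their levels were 913 and 303 CPM for Elane, 485 and 193 for Mpo, 2441 and 1114 for Prtn3 and 1099 and 535 for Ctsg, in 7 and 9 cells. With both libraries summed this made Prtn3 1652 CPM against 319 in the S100a8/S100a9-high progenitors, and Ctsg 764 against 36.4. Elane was higher in the S100a8/S100a9-low progenitors of the HDAC3 inhibitor library (913 against 193 CPM) and lower in those of the vehicle library (303 against 480), and vehicle Mpo was close in both (193 against 178). These levels rest on few cells. Single cells held 91 of the 113 Elane UMIs behind 913 CPM and 102 of the 108 behind 480 CPM. For Mpo, 1 cell held 38 of the 40 UMIs behind 178 CPM, and the 136 Ctsg UMIs behind 1099 CPM lay in 2 of 7 cells. These progenitors held almost no secondary transcripts, with 0 UMIs of Ltf, 0 and 16.5 CPM of Ngp, 0 and 5.50 CPM of Camp, and 8.08 and 27.6 CPM of Lcn2.

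Secondary transcripts were at their height in progenitors and early cells and fell by stage, each at its own pace. Camp was highest in the S100a8/S100a9-high progenitors at 53910 and 54290 CPM, then 41740 and 41260 in early, 3864 and 5953 in intermediate, and 29.7 and 735 in late cells. Ngp held 41500 and 41890 CPM in these progenitors, 37010 and 42090 in early, 6248 and 9419 in intermediate, and 113 and 1704 in late cells. Both libraries had the same order of stages for Camp. For Ngp the progenitors and early vehicle cells were close, at 41890 and 42090 CPM.

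Ltf came later and Lcn2 stayed longer. Ltf rose from 4255 and 4897 CPM in the progenitors to 8462 and 10050 in early cells, a ratio of 2.05 (1.95 to 2.15) with libraries summed, then stood at 1424 and 1962 in intermediate and 5.95 and 364 in late cells. The same ratio of early cells over progenitors was 1.22 for Lcn2, 0.964 for Ngp and 0.765 for Camp. Lcn2 held 16960 and 14240 CPM in the progenitors, 18150 and 19180 in early, 8153 and 8858 in intermediate and 2110 and 2852 in late cells.

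**Figure D1:**
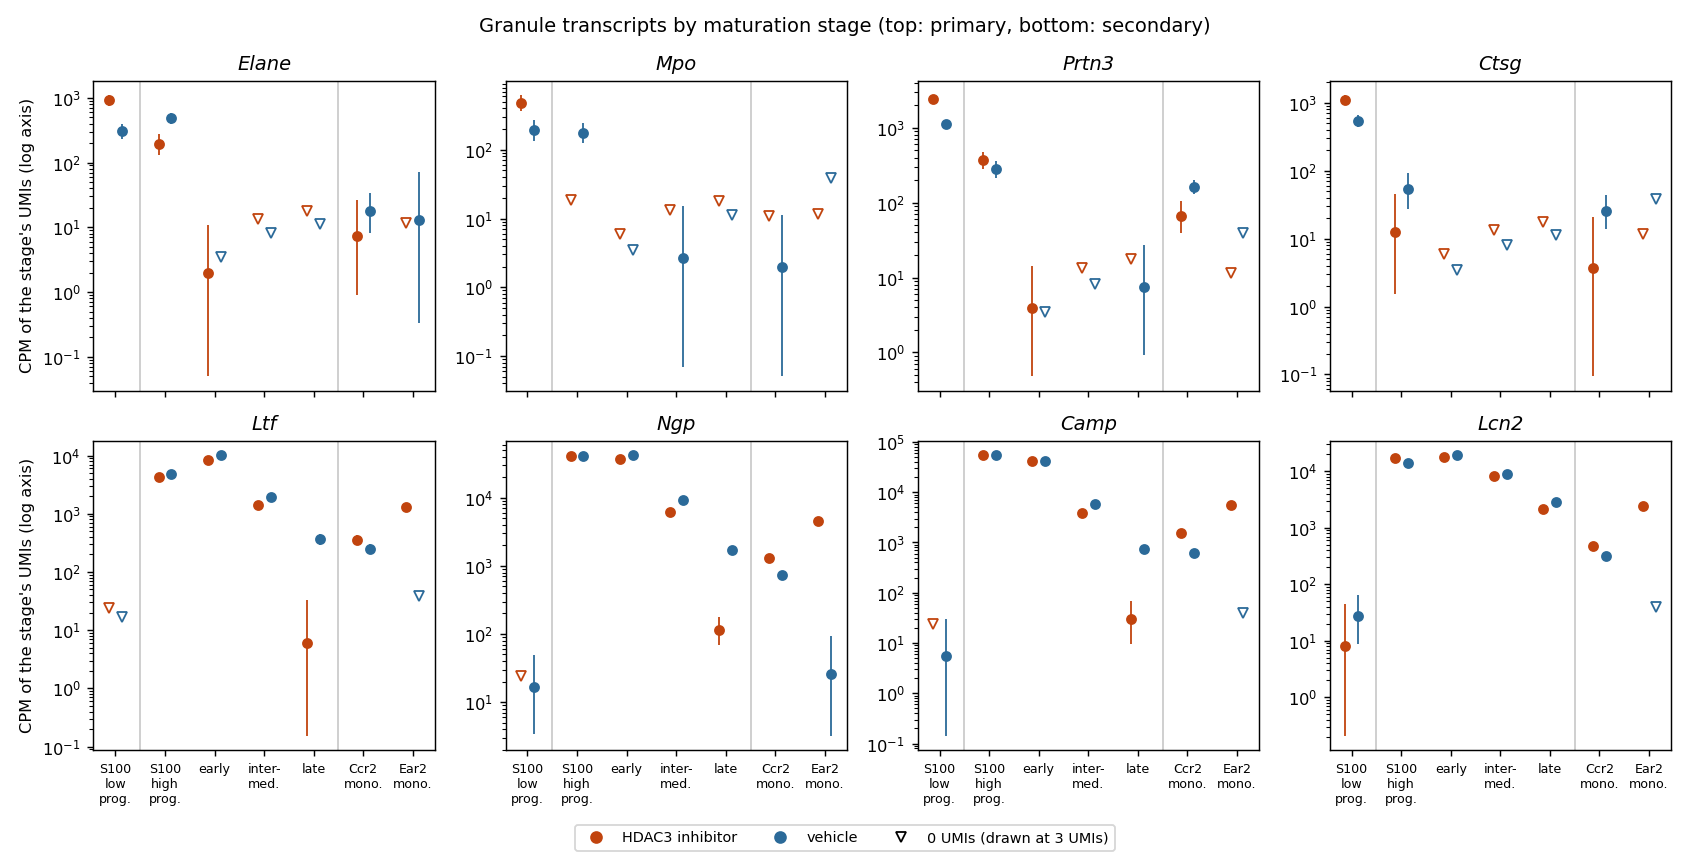
CPM of the 8 members by stage and in Ccr2 and Ear2 monocytes on a log axis, with a point per library, 95% Poisson intervals, and open triangles at the level of 3 UMIs where none was found. Within the lineage the primary members leave at most 2 UMIs per library and stage after the progenitors, while Camp goes from 54140 CPM in the S100a8/S100a9-high progenitors to 460 in late cells and Lcn2 from 15370 to 2563.

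From early to intermediate cells, levels fell 8.03-fold for Camp, 5.39-fold for Ltf, 4.90-fold for Ngp and 2.19-fold (2.12 to 2.26) for Lcn2, with libraries summed. From intermediate to late the falls were 11.2-, 7.83-, 7.57- and 3.35-fold in the same order. Early over late, the fold was 90.01 (78.3 to 104) for Camp, 42.2 (34.6 to 52.1) for Ltf, 37.1 (33.9 to 40.7) for Ngp and 7.34 (6.91 to 7.80) for Lcn2. As a share of the secondary UMIs, Lcn2 went from 13.3% in the progenitors through 17.1% and 36.2% to 59.2% in late cells, and Camp from 46.7% through 37.7% and 21.8% to 10.6%. In the HDAC3 inhibitor library Lcn2 reached 93.4% of the late secondary UMIs and in the vehicle library 50.4%. The late shares rest on 1 vehicle cell. Without the richest late cell of each library, Lcn2 made up 325 of 342 and 517 of 570 secondary UMIs, and Camp 4 and 8.

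A single vehicle cell holds most of the late signal of Ltf, Ngp and Camp. It had 16941 UMIs, against a median of 3795.5 for late vehicle cells, with 34.8% of them from S100a8 and S100a9. It carried 94 of the 96 Ltf UMIs of late vehicle cells, 407 of 450 Ngp, 186 of 194 Camp and 236 of 753 Lcn2, or 61.8% of that library's late secondary UMIs. The next cell held 42. Without this cell the fold of early over late was 8.96 for Lcn2, 269.5 for Ngp, 1324 (774 to 2486) for Camp on 13 late UMIs, and 48.1 in place of 25.4 for the 4 genes summed. Ltf then kept 3 UMIs in late cells, too few for a fold.

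Single cells showed how the stage sums arose. UMIs of Camp per 10000 UMIs of a cell were 77.4, 532 and 2227 (lowest, median, highest) in the S100a8/S100a9-high progenitors, 0, 385 and 1788 in early cells, 0, 4.90 and 369 in intermediate and 0, 0 and 110 in late cells. For Lcn2 the values were 1.29, 165 and 280, then 33.4, 170 and 909, then 0, 69.2 and 192, and 0, 10.1 and 139. The Camp median was thus 4.90 in intermediate cells and 0 in late cells, while the Lcn2 median stayed above 0 at every stage. The median of Ltf, 43.5 and 88.6 in progenitors and early cells, was 0 from the intermediate stage on, where 40 of 100 cells held a UMI.

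Of late cells, 105 of 138 held a Lcn2 UMI, 26 Ngp, 9 Camp and 3 Ltf. With every cell thinned to 1000 UMIs, which leaves none out, the share of late cells with Lcn2 was 61.4% and 64.7%, against 70.0% and 82.4% at full depth. For Ngp it was 5.71% and 11.8%, against 15.7% and 22.1%, for Camp 2.86% and 1.47%, against 4.29% and 8.82%, and for Ltf 0% and 1.47%, against 1.43% and 2.94%. At either depth Lcn2 was the member found in most late cells, followed by Ngp, while the thinned shares of Camp and Ltf rest on too few cells for an order.

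**Figure D2:**
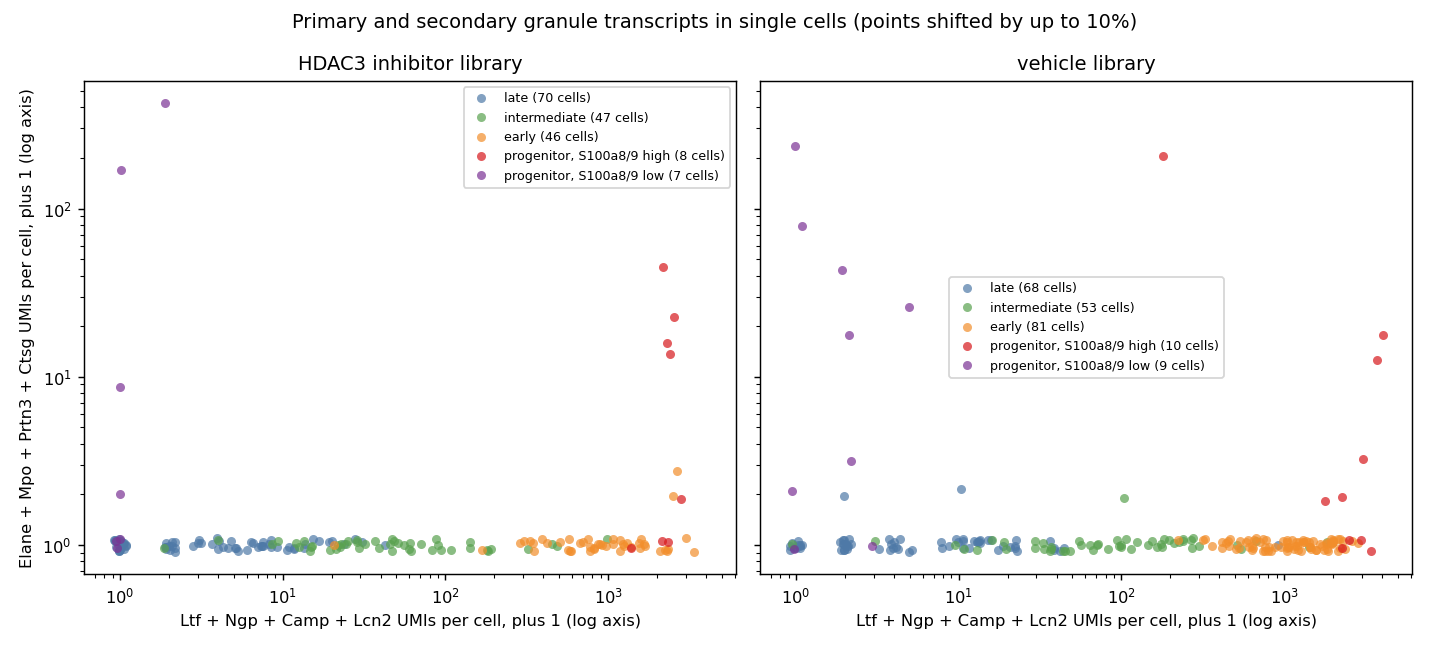
Summed primary against summed secondary UMIs (plus 1, log axes) in each cell of the lineage and of the S100a8/S100a9-low progenitors, by library and coloured by stage, with points shifted by up to 10% to part them. Most cells lie along one of the axes, and 7 lineage cells had at least 10 UMIs of each.

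The step from primary to secondary granules was caught in few cells. Of the 18 S100a8/S100a9-high progenitors, 11 held a primary UMI. A vehicle cell with 102 Elane, 38 Mpo, 40 Prtn3 and 11 Ctsg UMIs had 103 Ngp and 60 Camp UMIs but 0 Ltf and 1 Lcn2, with 12.6% of its 7755 UMIs from S100a8 and S100a9. Another 6 cells held 11 to 43 primary UMIs with at least 2259 secondary UMIs. The 11 remaining held 0 to 2 primary UMIs. One of the 6, an HDAC3 inhibitor cell with 14 primary UMIs, also held 56 UMIs of Ly6c2 and 12 of Ccr2, both monocyte genes. One of the 11, a vehicle cell, held 38 and 7. No other S100a8/S100a9-high progenitor held a Ccr2 UMI. Whether these barcodes hold more than 1 cell was not tested beyond the doublet caller. The S100a8/S100a9-high progenitor richest in primary transcripts thus held Ngp and Camp with almost no Ltf or Lcn2. It is a single cell and gives no order in time. The next richest, with 43 primary UMIs, held 35 Ltf and 186 Lcn2 UMIs beside 557 Ngp and 1481 Camp.

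Across the 383 lineage cells, correlations of log values are given as a description, since the cells share 2 libraries and differ in depth. Ltf and Camp correlated at r = 0.953, Ngp and Camp at 0.943 and Ltf and Ngp at 0.916. Lcn2 followed the other secondary members less closely, at 0.719 with Ltf, 0.7499 with Camp and 0.803 with Ngp. Pairs of primary members lay between 0.587 and 0.923, and primary against secondary members between -0.0823 and 0.145. All values with a primary member rest on few cells, since 16 of the 383 held a primary UMI. A single vehicle cell held 102 of the 140 Elane, 38 of the 41 Mpo and 11 of the 14 Ctsg UMIs of the lineage.

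Other granule genes, from lists of the pathway, spread over the same stages. Of 11 measured secondary granule genes outside the members, 6 were highest in early cells, 2 in progenitors, 1 in intermediate and 2 in late cells. Chil3, a chitinase-like protein, fell from 12660 through 8000 and 917 to 71.7 CPM, close to the course of Camp. Wfdc21, a small protease-inhibitor-like protein, stood at 5422, 7880, 5820 and 2251 CPM and Cyba, the small chain of the NADPH oxidase, at 2025, 2074, 1391 and 1376. Hp (haptoglobin) went the other way, from 1696 to 3308 CPM. Olfm4 and Mmp8, chosen after their values were seen, peaked with or after Ltf: Olfm4 at 0, 299, 160 and 2.31 CPM and the collagenase gene Mmp8 at 57.1, 1740, 3443 and 1772.

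Of 9 measured tertiary and secretory granule genes, 5 were highest in intermediate, 2 in late and 1 in early cells. The remaining 1, Fcnb (ficolin B), fell from 997 CPM in the progenitors through 141 and 23.5 to 0, and was named after its values were seen. Mmp9, the gelatinase that gives these granules their name, stood at 39.0, 1268, 2154 and 1619 CPM. Both Fcnb and Mmp9 belong to the lists that set the order of stages. Itgam, the integrin chain CD11b, held 197, 509, 437 and 391 CPM, and Adam8, a membrane metalloprotease, 36.4, 301, 549 and 625.

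Of the 6 measured genes of primary granules and protease handling outside the members, 3 were highest in the progenitors, 1 in early and 2 in late cells. Ctsc, which activates the serine proteases, fell at the same step as the members, at 88.3 CPM in the progenitors and 4.35, 13.4 and 13.9 afterwards. Lyz2 (lysozyme), found in all granule types, stayed between 19520 and 6817 CPM, Cd63, a granule membrane protein, fell from 545 to 148 CPM, and Srgn, the proteoglycan that holds granule proteins, rose from 208 to 4784. Serpinb1a, an inhibitor of these proteases chosen after its values were seen, fell more slowly than the primary members, at 1031, 619.5, 215 and 6.94 CPM.

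Regulators of granulocyte formation, the transcription factors and Csf3r, were measured as well. Of 8 such genes, 5 were highest in late, 2 in progenitor and 1 in intermediate cells. The 2 highest in progenitors, Cebpe and Myb, and Csf3r among the 5 late ones belong to the lists that set the order of stages. Cebpb rose from 649 through 919 and 2690 to 4731 CPM and Spi1, which encodes PU.1, from 317 to 960, with Cebpd between 178 and 308. Cebpe, the factor needed for secondary granules, was chosen after its values were seen: it fell from 325 through 272 and 90.7 to 20.8 CPM.

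Genes with the pattern most like the members were ranked by the correlation of log values with the summed members over the 565 cells, among 5088 genes. For the primary members the 5 highest were Ms4a3 (0.497), Fdps (0.493), Mcm6 (0.485), Dut (0.485) and F13a1 (0.458). For the secondary members they were Wfdc21 (0.886), Cd177 (0.825), Adpgk (0.787), S100a8 (0.786) and Syne1 (0.785). The secondary pattern was thus matched far more closely by its nearest genes than the primary pattern, which sits in few cells.

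Primary transcripts rested on a handful of cells. The fewest cells that held 50% of a gene's UMIs were 1 and 1 for Elane, 1 and 2 for Mpo, 2 and 4 for Prtn3 and 2 and 2 for Ctsg. Genes with a like UMI total needed medians of 52 and 57, 32 and 27, 159 and 116, and 91 and 49 cells. For the secondary members the counts were 19 and 36 cells for Ltf, 17 and 31 for Ngp, 15 and 24 for Camp and 25 and 40 for Lcn2, where genes of like total needed medians of 279 to 408.

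**Figure D3:**
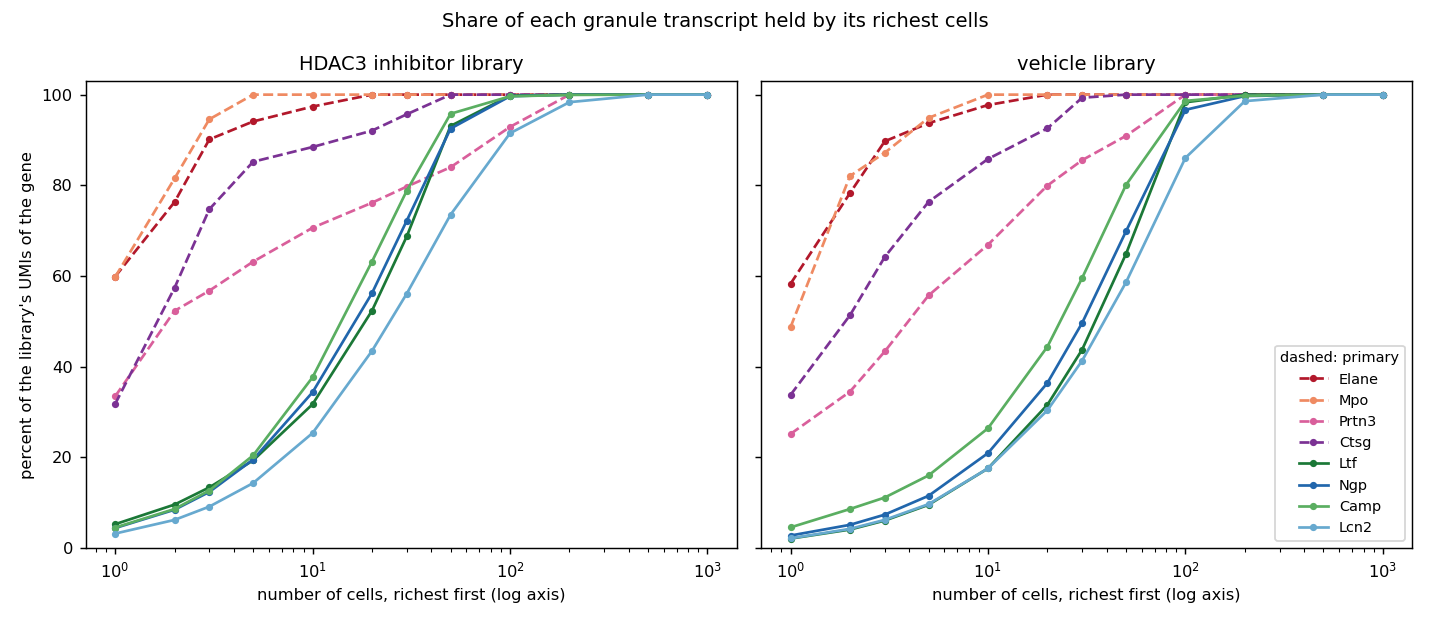
Share of a member's UMIs held by its top 1 to 1000 cells in each library, on a log axis of cells. The first cell holds 25.2% to 59.9% of a primary member and 2.10% to 5.27% of a secondary member.

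Of all kept cells, 21 (9 and 12) held 10 or more primary UMIs, and they carried 79.1% of all primary UMIs. By the genes they expressed they were of 4 kinds, sorted after their values were seen. Of these, 10 cells rich in Ly6c2, a marker of monocytes and their progenitors whose counts are uncertain because Ly6c1 is a near copy, held 53.4% of all primary UMIs with 3 secondary UMIs between them. The richest cell of the HDAC3 inhibitor library, with 22612 UMIs in all, was of this kind, with 91 Elane, 55 Mpo, 188 Prtn3 and 88 Ctsg UMIs, 39.0% of that library's primary UMIs, beside 69 Ly6c2 UMIs. The richest vehicle cell was too, with 35 Elane, 26 Mpo, 108 Prtn3 and 50 Ctsg UMIs, 26.4% of its library, beside 54 Ly6c2 UMIs.

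The 7 S100a8/S100a9-high progenitors described above held 16.3%. A further 3 cells with 224 to 279 UMIs of Mcpt8, a basophil protease, held 6.27% of primary UMIs and 24.5% of Ctsg, with no Elane and no Prtn3. The last kind was 1 cell of the HDAC3 inhibitor library that fell in a microglia-like cluster had 20 Mpo, 25 Prtn3, 15 Ctsg and 0 Elane UMIs beside the stem cell genes Kit, Cd34 and Myb. By member, the S100a8/S100a9-high kind held 42.2% of Elane but 3.29% of Ctsg. The whole neutrophil lineage held 42.8% of the Elane UMIs of the series, 24.1% of Mpo, 12.8% of Prtn3 and 3.29% of Ctsg. With libraries summed, most UMIs of each of these 4 genes thus lay outside the neutrophil lineage as drawn here. That lineage leaves out the S100a8/S100a9-low progenitors by definition, and whether some of them would become neutrophils was not tested. By library this differed: the lineage held 32 of 152 and 108 of 175 Elane UMIs, and 0 of 92 and 41 of 78 Mpo UMIs. In vehicle, 1 cell held 102 of these Elane and 38 of these Mpo UMIs.

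Toward monocytes, Prtn3 was found in more cells than the other primary members. From S100a8/S100a9-low progenitors through Ccr2 monocytes to the 779 other monocyte/macrophage-like cells it stood at 1652, 129 (105 to 157) and 7.53 CPM (6.38 to 8.84) with libraries summed. In Ccr2 monocytes it was at 66.3 and 164 CPM and in 30 of 64 cells. Elane went from 551 through 14.2 to 0.200 CPM, and Mpo from 311 through 1.29 to 0.599, where all 12 UMIs lay in 1 Mcpt8 cell. Ctsg went from 764 through 18.1 to 7.04 CPM, or 2.80 without the Mcpt8 cells. With libraries summed all 4 were thus lower at each step, though Mpo rests on 1 UMI in Ccr2 monocytes. The strand question raised below for Prtn3 and the overlapping gene Plppr3 bears on these cells too: monocyte/macrophage-like cells held 44 Plppr3 UMIs in 42 cells, 12 of them with both genes, beside 394 UMIs of Prtn3.

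Secondary members kept to the lineage more tightly. The lineage held 95.1% of all Ltf UMIs, 96.5% of Ngp, 96.6% of Camp and 90.3% of Lcn2. This contrast depends on how the lineage was drawn, by S100a8 and S100a9, since S100a8 ran with the summed secondary members (r = 0.786). Outside it, 7 cells (5 and 2) with 77 to 1245 UMIs of Ltf, Ngp and Camp carried 88.3% of the remaining UMIs of these genes. They had no primary UMIs and 17.4% to 26.6% of their UMIs from S100a8 and S100a9, against at least 3.94% in any lineage progenitor, and lay in the Ear2 monocyte (4), Ccr2 monocyte (2) and fibroblast-like (1) groups. The fibroblast-like cell held 249 of the 255 Lcn2 UMIs of vehicle fibroblast-like cells, and without it fibroblast-like Lcn2 stood at 7.40 CPM with libraries summed. Whether these barcodes hold 2 cells was not tested beyond the doublet caller, which had passed them.

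Prtn3 was also counted in ependymal-like cells, the ciliated lining of the cord's fluid space. They held 28 and 17 UMIs in 25 and 14 cells, or 24.2 CPM (16.1 to 34.9) and 31.4 CPM (18.3 to 50.3), with at most 3 UMIs in a cell. The share of these cells with a UMI was 13.4% and 18.9% at median depths of 5644 and 6991.5 UMIs, and 2.69% and 1.35% with cells thinned to 1000 UMIs. In endothelial-like cells, deeper at medians of 7302.5 and 7714, it was 0 of 435 cells. The gene Plppr3 overlaps Prtn3 on the other strand and shares exon bases with it, and it too was seen in these cells, with 49 UMIs in 38 cells and 9 cells holding both genes. No source used here says whether strand was used in counting, so the UMIs of the 2 genes there cannot be told apart. No neutrophil-like cell held a Plppr3 UMI. Mpo overlaps Gm11505 in the same way, with 1 UMI in the series.

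Lcn2 had a second source in endothelial-like cells, the cluster led by Ackr1, Slc38a5 and Vwf, genes of venous endothelium and of vessels in general. It stood at 540 CPM (513 to 569) and 378 CPM (354 to 404), with 1449 and 895 UMIs in 102 and 67 cells of 248 and 187. The ratio was 1.43 (1.31 to 1.55), and between 1.205 and 1.628 under 8 alternatives, the highest without the top cell of each library. The top 10 cells held 55.3% and 70.4% of these UMIs, so the interval, which counts UMIs and not cells, understates the error. In neutrophil-like cells the Lcn2 ratio was 0.884, and between 0.718 and 1.08 under 9 alternatives, the highest with a stricter cell filter. With libraries summed the level was 464 CPM, and between 235.0 and 419 under other filters, clusterings and choices of vessel clusters. Ngp in the same cells was at 4.47 and 7.18 CPM, so there were 121 and 52.7 Lcn2 UMIs per Ngp UMI, against 0.559 and 0.515 in neutrophil-like cells. Late cells lay between, with 355 Lcn2 beside 19 Ngp UMIs and 753 beside 450, or 517 beside 43 without the top vehicle cell. The part of free RNA in the endothelial-like value was not tested.

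Other vessel clusters held less Lcn2. A cluster led by Gkn3, Alpl and Sema3g, left unnamed, had 11.6 and 13.1 CPM, and one rich in haemoglobin transcripts, also unnamed, 101 and 69.0. Astrocyte-like cells, known to make Lcn2 in inflamed nervous tissue, stood at 56.7 and 328 CPM, but on 11 and 26 UMIs of which single cells held 9 and 21. In the remaining named classes Lcn2 lay between 0 and 21.8 CPM in either library, with the 7 cells above set aside.

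**Figure D4:**
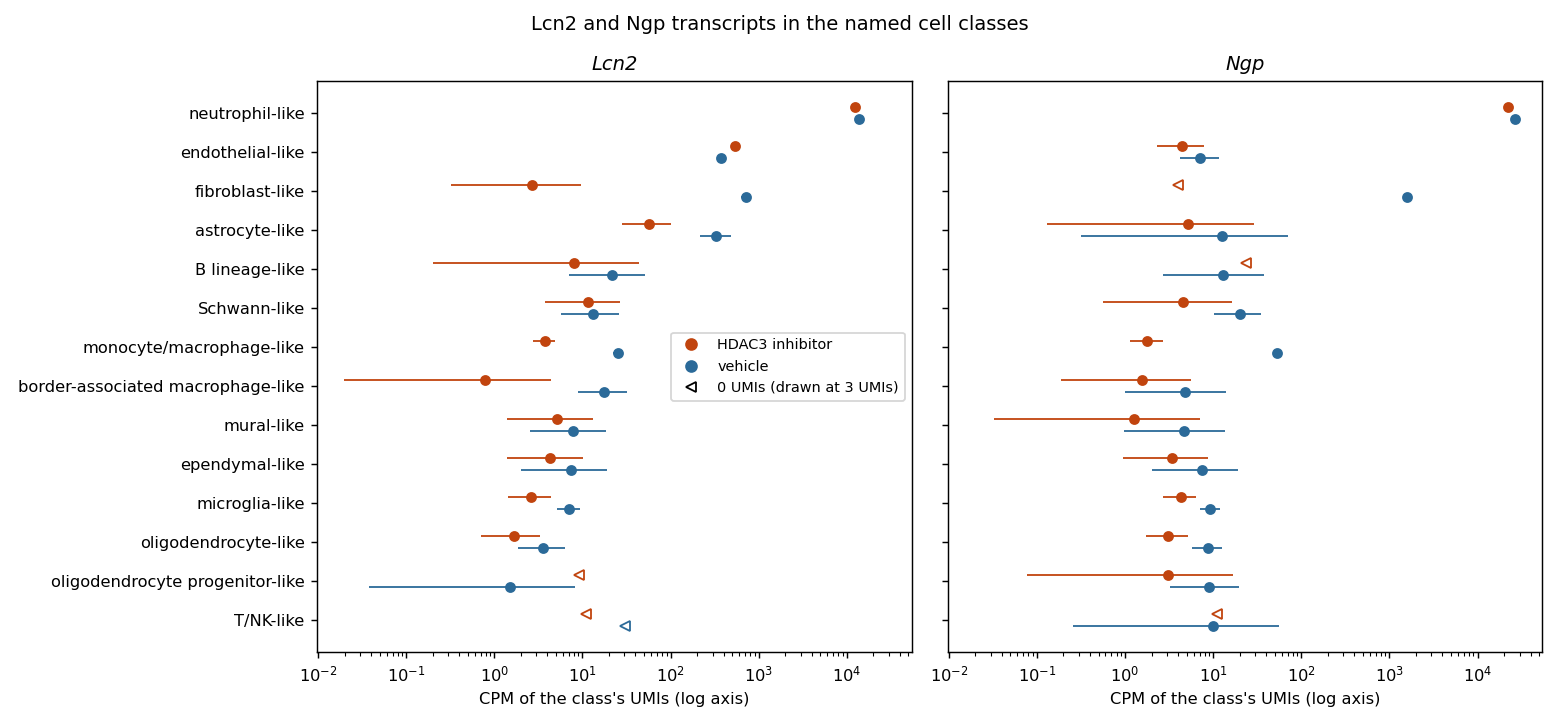
CPM of Lcn2 and Ngp by named cell class and library on log axes with 95% Poisson intervals, and open triangles at the level of 3 UMIs where none was found. Neutrophil-like cells are high in both genes, endothelial-like cells hold 540 and 378 CPM of Lcn2 with little Ngp, and the vehicle fibroblast-like value, 716.5 CPM of Lcn2, rests on 1 cell.

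Within endothelial-like cells Lcn2 was uneven: 266 of 435 cells had 0 UMIs, 88 had 1 to 4 and 81 (49 and 32) had 5 or more. The 48 cells with at least 10 UMIs held 84.3% of it, and the top cells had 167 and 195. The share of cells with a UMI was 41.1% and 35.8%, and 16.5% and 13.9% with cells thinned to 1000 UMIs.

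Cells with 5 or more Lcn2 UMIs were set beside cells with none, with genes chosen after Lcn2 values were seen. The first were deeper, with a median of 20195 UMIs against 6438.5, and the part of depth in this split was not tested. In CPM, Vcam1, a leukocyte adhesion molecule, was 23.5-fold higher in Lcn2-rich cells (19.7- and 29.6-fold by library), Ackr1, a chemokine receptor of venules, 21.1-fold (11.8 and 135.5) and Lrg1 9.42-fold (6.72 and 31.0). Icam1 was 5.14-fold and Il1r1, the receptor for interleukin-1, 5.33-fold higher. The general endothelial genes Cldn5 and Pecam1 stood at 0.723 and 0.837 of the level in cells without Lcn2. S100a8 and S100a9 stood at 0.630 and 0.400, and Ngp at 1.39 (0.586 to 3.38). Hbb-bs, a haemoglobin gene, was 27.3- and 1.96-fold higher by library, and its part in the result was not tested.

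By class, the genes whose level ran most like Lcn2 over the 13 named classes other than neutrophils were Cyp2d22 (r = 0.911), Fmo1 (0.899), Plxna2 (0.893), Wnt5a (0.886) and Flrt2 (0.871), among 12635 genes. With 13 points, of which few carry Lcn2, this ranking mainly names genes of the endothelial-like class.

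Between the libraries, every secondary member was lower in the HDAC3 inhibitor library when all kept cells were summed. Ltf stood at 153 and 381 CPM, a ratio of 0.401 (0.388 to 0.414), Ngp at 754 and 1768 (0.427), Camp at 865 and 1775 (0.487) and Lcn2 at 441 and 881 (0.501, 0.491 to 0.510). All 4 were thus at least 1.5-fold lower, as were 2.73% of the 13083 genes with at least 100 UMIs, with 3.25% at least 1.5-fold higher. The ratio of the 4 genes summed was 0.461 (0.457 to 0.465).

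Neutrophils were also fewer in the HDAC3 inhibitor library, and fewer of them were early cells. The lineage made up 5.79% and 9.80% of cells and 2.81% and 5.97% of UMIs, and the ratio of the neutrophil-like share of cells was 0.601 (0.486 to 0.742). Of the lineage, early cells were 26.9% (20.4% to 34.2%) and 38.2% (31.6% to 45.1%), late cells 40.9% (33.5% to 48.7%) and 32.1% (25.9% to 38.8%), and the S100a8/S100a9-high progenitors 4.68% and 4.72%. The intervals of the early and late shares overlap between libraries.

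Within neutrophil-like cells the ratios were nearer to 1: 0.776 (0.749 to 0.804) for Ltf, 0.815 for Ngp, 0.944 for Camp and 0.884 for Lcn2. None of the 4 was 1.5-fold lower, as 1.85% of 2054 genes were, and 6.82% were 1.5-fold higher. With each cell counted alike, which weights late cells more, the summed ratio was 0.629, and with a stricter cell filter it turned to 1.07, so the direction in neutrophil-like cells rests on which cells are kept. Over the whole lineage, which adds the progenitors, the ratios were 0.807 for Ltf, 0.874 for Ngp, 0.988 for Camp and 0.960 for Lcn2. With the vehicle library's shares of UMIs by stage given to both they were 0.829, 0.878, 0.988 and 0.969. The part of stage shares, and of maturity within a stage, in the library difference was not tested.

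By stage, the 4 genes summed had ratios of 1.01 in the S100a8/S100a9-high progenitors, 0.936 in early, 0.752 in intermediate and 0.400 (0.356 to 0.448) in late cells. In early cells none of the 4 was 1.5-fold lower, where 3.78% of 1084 genes were and 4.98% were higher. In intermediate cells 2 of 4 were, Camp at 0.649 (0.5995 to 0.702) and Ngp at 0.663 (0.623 to 0.706), where 2.76% of 617 genes were lower and 7.46% higher, with Ltf at 0.726 and Lcn2 at 0.920. Intermediate cells of the HDAC3 inhibitor library were also shallower (medians 4281 and 6539 UMIs), and the part of this was not tested.

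In late cells, Ngp at 0.0663 and Camp at 0.0405 were past 1.5-fold, 2 of the 3 members with at least 100 UMIs, where 4.37% of 572 genes were lower and 5.94% higher. These values rest on the vehicle cell described above. Without the richest late cell of each library the ratio was 0.904 (0.789 to 1.04) for the 4 genes summed, 0.947 (0.822 to 1.09) for Lcn2 and 0.421 (0.202 to 0.812) for Ngp.

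Primary members did not share this library difference in sum. All kept cells held 28.7 and 28.6 CPM of the 4 genes, a ratio of 1.001 (0.914 to 1.10). Elane was at 0.667 (0.533 to 0.833), Mpo at 0.905 (0.662 to 1.24), Prtn3 at 1.01 (0.885 to 1.14) and Ctsg at 1.44 (1.17 to 1.77). By the 1.5-fold rule 1 of the 4 was lower, Elane, which lay at the cut-off itself, and 0 were higher. Of the 13083 genes, 2.73% were lower and 3.25% higher. Since 1 or 2 cells hold at least 50% of the UMIs of Elane, Mpo and Ctsg in either library, these intervals, which count UMIs and not cells, understate the error.

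**Figure D5:**
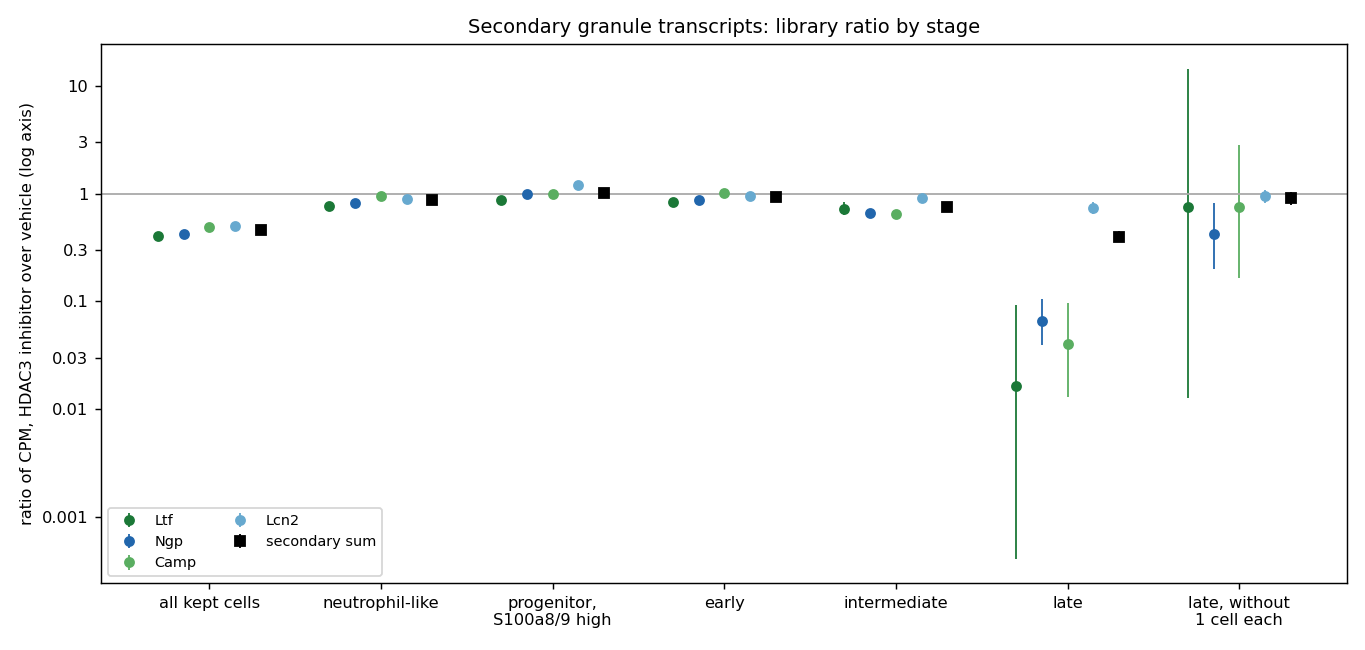
Ratio of CPM, HDAC3 inhibitor over vehicle, for the secondary members and their sum in all kept cells, in neutrophil-like cells, by stage and in late cells without the richest cell of each library, on a log axis with 95% counting intervals. The 4 genes lie at 0.401 to 0.501 over all kept cells, at 0.776 to 0.944 in neutrophil-like cells, and spread widest in late cells.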

How the data were processed

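The authors deposited UMI counts for each barcode and gene. Per the file headers these come from Cell Ranger 3.0.2, and the submitters' processing notes add mm10 and Seurat. The use of strand, and of reads matching several genes, is not stated in any source used here. Of 3423 and 2523 barcodes, with 38957752 and 29726813 UMIs, 448 and 353 failed a minimum of 500 genes and 1000 UMIs or a maximum of 15% mitochondrial UMIs. Scrublet in scanpy 1.11.5 called 21 and 6 doublets, left out.

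Both libraries were clustered together on 2000 variable genes without the members, with 30 components, 20 neighbours, leidenalg 0.10.2 at resolution 1 and no integration. A cluster took the name of a marker list with a mean log2 ratio of at least 2.5 over the median cluster, 0.5 above the next list, on at least 3 markers of 20 CPM. The marker names carry "-like". Counts were summed per library and group with exact Poisson, Clopper-Pearson and conditional binomial intervals (scipy 1.17.1), tested on simulated data. Named genes are the members, up to 4 most abundant genes of each list and the 5 most alike, with exceptions marked. Members and lists were chosen with earlier results of these data known, and the thresholds for naming, the S100a8/S100a9 level and the UMI minimums per cell were set after the values were seen. Sequences are from RefSeq (GRCm38.p6), with 8 of 8 members matched.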

Additional observations from a re-analysis of the deposited data

How the results depend on the processing

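No paired analysis was possible because each group has 1 library, and no replicate could be left out. Cell filter, doublets, clustering, naming and weighting were varied 1 at a time. The cause of each change below was not tested. The share of primary UMIs held by the least mature stage, 98.1%, lay between 97.2% and 99.1% under its 8 alternatives.

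With a stricter cell filter (1000 genes, 2000 UMIs, 10% mitochondrial) the library ratios in neutrophil-like cells turned to 1.02 for Ngp, 1.14 for Camp, 1.08 for Lcn2 and 1.07 for the 4 genes summed, and the ratio of the neutrophil-like share went from 0.601 to 0.411. The summed ratio, 0.869, was 0.909 with no filter, 0.918 with members among the clustering genes, 0.851 with each cell classed by its own markers, 0.629 with cells weighted alike, 0.860 without the top cell of each library and 0.617 with cells thinned. Over the lineage it was 0.927, and 0.931 with the vehicle stage shares (added after seeing the data). In late cells it went from 0.400 to 0.904 without the top cells, and the early-to-late fold from 25.4 to 48.1, both added after seeing the data.

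The share of primary UMIs in the 565-cell set, 76.1%, was 39.0% with no filter, 61.6% with the stricter one, 16.9% with members among the clustering genes, 57.9% with own markers and 79.9% without Mcpt8 cells (added). The secondary share, 97.8%, was 98.3% with the stricter filter, 97.7% with doublets kept, 98.3% with members and 83.5% with own markers. Secondary UMIs in the 2 least mature stages, 92.5%, were 77.8% with no filter, 74.8% with the stricter one, 92.0% at resolution 2, 93.8% with members, 94.5% with own markers, 92.85% in 5 bins and 88.9% with cells alike.

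Lcn2 in endothelial-like cells, 464 CPM with libraries summed, was 343 with no filter, 287.3 with the stricter one, 286.6 with doublets kept, 285.9 at resolution 2, 419 with members, 279.5 with own markers, 396 without the top cells and 235.0 over all clusters led by the endothelial list (added). Its library ratio, 1.43, was in the same order 1.21, 1.29, 1.30, 1.30, 1.20 with own markers, 1.63 without the top cells and 1.22 over all clusters. The value with members among the clustering genes is left out of this list and lay between 1.205 and 1.628. Depth limits late cells most: 3 counts there are the floor.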
